A study of Mus musculus with 18 samples.

Results

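The effect of the hd allele on gene expression was measured in 12 RNA-seq libraries of mouse embryos at E10.5, out of 18 libraries in the series. The 6 libraries with hd came from Hoxb13hd and Del(i9-13):Hoxb13hd embryos, 3 of each, and the 6 without it came from wild type and Del(i9-13) embryos, again 3 of each. Del(i9-13) is an engineered deletion in the HoxB cluster, and all mutant genotypes were homozygous. The series title asks how CTCF-dependent insulation of Hoxb13 bears on the timing of tail growth, and the meaning of the letters hd was not given in the sources used here. Heads had been removed at dissection, and these libraries were made from ribo-depleted RNA with a stranded kit. Whether a library holds 1 embryo or a pool, and which crosses gave each genotype, was not given either, so that each p-value measures only how these libraries scatter, which may be technical. In RNA from a whole trunk, fewer cells of a type and less RNA per cell cannot be told apart.

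Hox genes are arranged in clusters whose order along the chromosome follows the order in which they are switched on from head to tail. Hoxb13 sits at the far 5′ end of the HoxB cluster and is among the last of its genes to be expressed, in the growing tail. The tail bud holds neuromesodermal progenitors, cells kept by Wnt and Fgf signals that supply both the spinal cord and the mesoderm of the lengthening body, and genes of the last Hox groups are known to restrain them.

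Library totals ran from 19.3 to 25.7 M counts. On the first principal component, which held 26.7% of the variance, the Hoxb13hd libraries 2 and 3 stood apart at 34.3 and 30.5, with Hoxb13hd library 1 at 16.8 and the other 9 libraries between -24.5 and 3.9. Xist was over 100 CPM (counts per library size, adjusted by TMM) in 3 of 6 libraries with hd and in 3 of 6 without it. Markers of head and brain were low throughout, at a summed 109 to 148 CPM with hd and 112 to 135 CPM without it over 19 genes, with Six3 and Six6 at 0 in every library.

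Hoxb13 itself, at chr11:96194316-96197447 (mm10), was not called for hd when both backgrounds were fitted in 1 model. Its reads numbered 25, 3 and 1 in wild type and 0, 1 and 2 in Hoxb13hd, but 269, 130 and 288 in Del(i9-13) and 255, 307 and 228 in Del(i9-13):Hoxb13hd. The level therefore followed the deletion, and within each background the libraries with and without hd overlapped. The fitted hd effect was -0.20 on the log2 scale (SE 0.52, edgeR adjusted p = 0.868). An exact two-sided permutation test of log2(CPM + 0.1) within backgrounds gave p = 0.5, where the smallest possible p is 0.005. Without the deletion, 3 reads against 29 gave a ratio of 0.117, with an exact 95% interval of 0.0228 to 0.377 that covers counting error only, and 25 of the 29 reads were in wild type library 1.

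Gm53, a long noncoding RNA gene between Hoxb13 and Hoxb9 (chr11:96251105-96264868), had 521, 441 and 371 reads in wild type and 652, 1076 and 1041 in Hoxb13hd. It had 0 reads in every library with the deletion, so that its call (log2 1.23, SE 0.25, adjusted p = 0.039) rests on the 6 libraries without the deletion alone. Those groups did not overlap. The call held in 3 of 12 fits that left out 1 library each, and without both Hoxb13hd libraries 2 and 3 the fitted change was 0.64. Of 12 HoxB genes tested, 2 passed, both higher with hd (against 3.1% of all genes). Hoxb1, the most 3′ gene of the cluster and a regulator of the hindbrain and early posterior mesoderm, ran from 6.28 to 11 CPM with hd (median 7.38) and from 3.71 to 5.81 without it (median 4.30). All 6 libraries with hd lay above the other 6, at a fitted 1.75-fold (log2 0.81, SE 0.11, adjusted p = 0.00227). Hoxb9 ran from 66.6 to 125 CPM with hd and from 50.3 to 99.5 without it, with overlap between Hoxb13hd and wild type (log2 0.35, SE 0.07, adjusted p = 0.0207). Its call was lost without Del(i9-13) library 2 or 3, at an adjusted p of up to 0.0559, and with the GC correction described below, at 0.0682. Hox genes of groups 9 to 13 in the other clusters had a median log2 change of 0.32, against -0.01 over all genes tested. In edgeR 0 of 17 passed, 6 had an unadjusted p under 0.05, and DESeq2 called 2. Over all 17202 genes tested, 3681 had such a p and DESeq2 called 1703.

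Across the genome, 763 of 17202 genes tested passed at an adjusted p of 0.05 for the hd main effect, which is 4.44%, and are called below. Of these, 533 were higher with hd (3.1% of genes tested) and 230 lower (1.34%). The changes were small: 614 of the called genes (80.5%) changed by less than 0.5 on the log2 scale, with a median size of 0.31 for higher and 0.32 for lower genes, and 44 changed by at least 1, of which 23 were higher and 21 lower. Protein-coding genes made up 723 of the calls. The libraries with hd did not overlap those without it within either background for 543 of the called genes, a pattern that 3.52% (above) and 1.92% (below) of all genes tested also showed. For 394 of them all 6 libraries with hd lay on 1 side of the other 6, which 2.22% (above) and 0.948% (below) of all genes tested did. The count depended on single libraries: 11 of the 12, left out in turn, moved it by over 1.5 times. It was 211 and 381 without wild type libraries 1 and 2, 1756, 264 and 184 without Del(i9-13) libraries 1, 2 and 3, 315, 450 and 271 without Del(i9-13):Hoxb13hd libraries 1, 2 and 3, and 391, 383 and 347 without Hoxb13hd libraries 1, 2 and 3. Without both Hoxb13hd libraries 2 and 3 it was 94, with 50 higher and 44 lower, of which 90 were among the 763; 1 Hoxb13hd library then remained, and it was assumed to vary like the other groups.

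Genes called higher with hd were rich in G and C, and genes called lower were poor in them. The median transcript GC content was 54.7% among higher genes, 43.2% among lower genes and 49.2% among genes not called. Among the 1438 genes with the lowest GC content (27.5 to 41.0%), 0.278% were called higher and 4.66% lower, with a median log2 change of -0.10. Among the 1438 with the highest (57.9 to 78.3%) the percentages were 8.83 and 0.139, with a median of 0.10. The tilt was also read for each library against the mean of all 12. With genes split by GC content into 5 equal bins, the median deviation in the highest bin minus that in the lowest was 0.06, 0.09 and 0.13 (log2) in Del(i9-13):Hoxb13hd and 0.10, 0.06 and 0.09 in Hoxb13hd. It was -0.19, -0.10 and -0.07 in wild type and 0.02, -0.08 and -0.10 in Del(i9-13), so that all 6 libraries with hd lay above all 6 without it. When a smooth curve of GC content was taken out of each library, 193 genes passed, 118 higher and 75 lower, of which 172 were among the 763. How library preparation differed between genotypes is not given, so its part in the tilt was not tested.

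**Figure D1:**
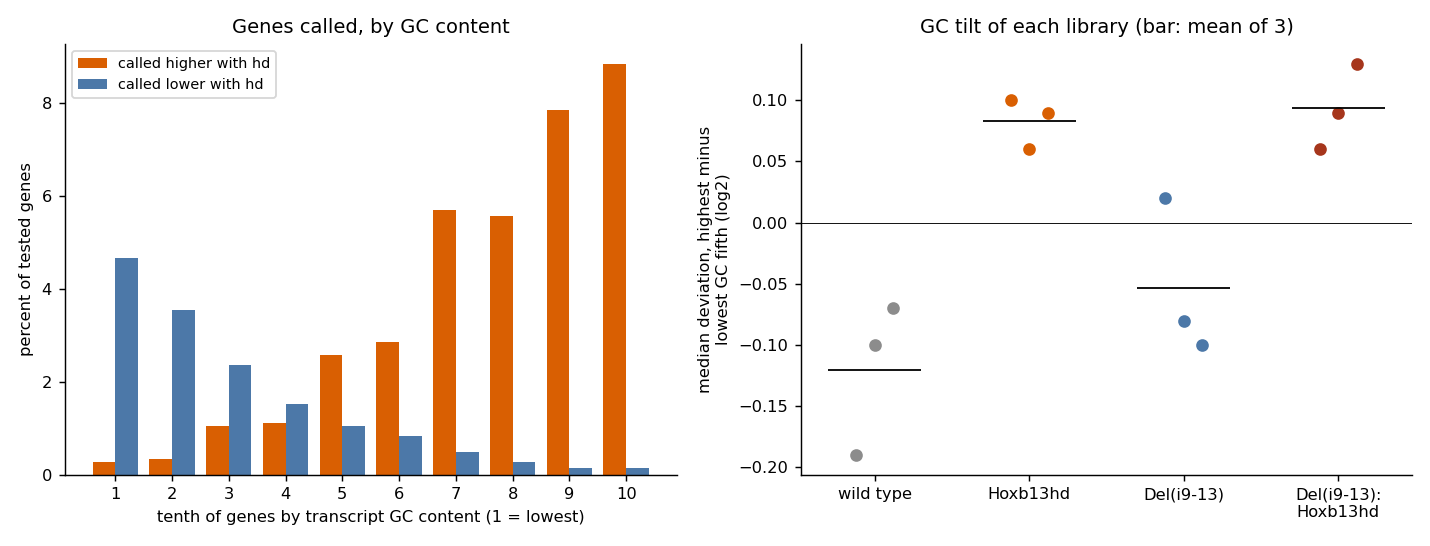
The left panel gives, for 10 equal bins of genes by transcript GC content, the percentage of tested genes called higher (orange) or lower (blue) with hd; higher calls climb from 0.278% to 8.83% and lower calls drop from 4.66% to 0.139%. The right panel gives for each library (points, with the mean of 3 as a bar) the median log2 deviation in the highest of 5 GC bins minus the lowest; the 6 libraries with hd lie between 0.06 and 0.13 and the others between -0.19 and 0.02.

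As examples of the contrast, 3 coding sequences are shown, chosen for high GC content among the higher genes and low GC content among the lower genes that were named for a small p-value. Other genes with small p-values differed less, with transcript GC contents of 52.4% in the higher gene Hddc3, 50.2% in the lower gene Hjurp and 49.0% in the lower gene H2-T24. The first 120 coding bases of the longest GENCODE M21 protein-coding transcript are shown 5′ to 3′ for the higher genes Erf (chr7:25242561-25250761, minus strand) and Ptk7 (chr17:46564471-46629504, minus strand), and for the lower gene Arrdc3 (chr13:80883410-80896042, plus strand), with G and C in capitals:
Erf: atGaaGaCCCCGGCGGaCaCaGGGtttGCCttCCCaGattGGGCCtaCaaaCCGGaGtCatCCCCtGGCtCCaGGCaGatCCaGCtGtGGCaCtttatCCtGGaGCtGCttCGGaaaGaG
Ptk7: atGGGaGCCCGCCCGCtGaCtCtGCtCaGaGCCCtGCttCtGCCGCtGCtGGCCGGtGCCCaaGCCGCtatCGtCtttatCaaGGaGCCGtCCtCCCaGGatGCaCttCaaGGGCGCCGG
Arrdc3: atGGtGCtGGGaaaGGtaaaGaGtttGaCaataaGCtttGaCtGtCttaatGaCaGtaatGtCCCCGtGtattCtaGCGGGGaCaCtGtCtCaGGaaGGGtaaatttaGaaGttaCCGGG
The stretch is 58.3% G and C in Erf and 65.8% in Ptk7, against 44.2% in Arrdc3. Over the whole transcripts the values are 59.7%, 59.0% and 40.6%.

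A core of 111 genes was called in each of the 12 fits that left out 1 library and also after the GC correction, 74 higher and 37 lower with hd. The groups did not overlap within either background for 70 of the higher and 34 of the lower ones. Over all genes tested 3.52% (above) and 1.92% (below) did so, but the core was selected on these same libraries, which favours separation. The core's median GC content was 53.7% (higher) and 44.4% (lower). A place in the core did not require a change in both backgrounds: the log2 hd effect of its member Rps18-ps6 was 0.80 without the deletion and -11.43 with it. Of the 111, 59 were also called without both Hoxb13hd libraries 2 and 3, and DESeq2 called 101. The genes in the next 2 paragraphs belong to this core unless said otherwise.

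The smallest p-value belonged to Hddc3 (chr7:80343104-80350547), which encodes a phosphohydrolase related to bacterial stringent-response enzymes. It ran from 17.2 to 30.4 CPM with hd (median 20.3) and from 5.64 to 8.74 CPM without it (median 7.08), so that every library with hd was above every other one. The change was 3.11-fold (log2 1.64, SE 0.11, edgeR adjusted p = 7.66e-06), and it was close in size without the deletion (1.54) and with it (1.73). P4ha3, a subunit of the prolyl hydroxylase that modifies collagen, rose 2.96-fold (log2 1.56, SE 0.19, adjusted p = 0.00092). Its levels were 6.99, 7.84 and 6.99 CPM in Del(i9-13):Hoxb13hd and 7.69, 6.77 and 3.59 CPM in Hoxb13hd, against 1.58 to 3.21 CPM in libraries without hd, and the lowest value with hd was Hoxb13hd library 3. Lrrc51, also on chromosome 7, rose 2.57-fold (log2 1.36, SE 0.21, adjusted p = 0.00534), from 1.53 to 4.22 CPM without hd to 4.60 to 7.13 CPM with it. Mrpl12, a protein of the mitochondrial ribosome, rose 1.91-fold (log2 0.93, SE 0.16, adjusted p = 0.0118), and again the groups did not overlap. Without both Hoxb13hd libraries 2 and 3 its adjusted p was 0.0957, while Hddc3, P4ha3 and Lrrc51 still passed.

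Among the lower genes was Hjurp, the chaperone that places the centromeric histone CENP-A. It ran from 145 to 171 CPM with hd (median 153) and from 232 to 334 CPM without it (median 290). The libraries with hd were all below the others and the fitted ratio was 0.545 (log2 -0.88, SE 0.09, adjusted p = 0.000276). Hjurp is 1 of 22 genes in the proliferation list, whose median change was 0.00. Of that list 2 others were called, Plk1 (log2 0.35) and Mcm2 (log2 0.18), both higher and neither in the core. Over all genes tested, 3.1% were called higher and 1.34% lower. Tcea1, a transcript elongation factor of RNA polymerase II, fell to a ratio of 0.604 (41.0 to 50 CPM against 61.1 to 84.6 CPM, adjusted p = 0.000416). Arrdc3, an arrestin-domain adaptor in receptor trafficking, fell to 0.614, with 73.1 to 86.7 CPM against 91.5 to 170 CPM, and the 3 highest values were the Del(i9-13) libraries at 158, 163 and 170 CPM. Snhg6, a host gene of small nucleolar RNAs, fell to 0.642 (adjusted p = 0.00686). A smaller decrease with little spread was seen for Dnajc3, a co-chaperone of the endoplasmic reticulum (105 to 114 CPM against 128 to 148 CPM). H2-T24, a nonclassical class I gene of the major histocompatibility complex, had a larger decrease at a low level (log2 -2.92, SE 0.32, adjusted p = 0.00036), from 1.18 to 2.56 CPM without hd to 0.0932 to 0.434 CPM with it.

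**Figure D2:**
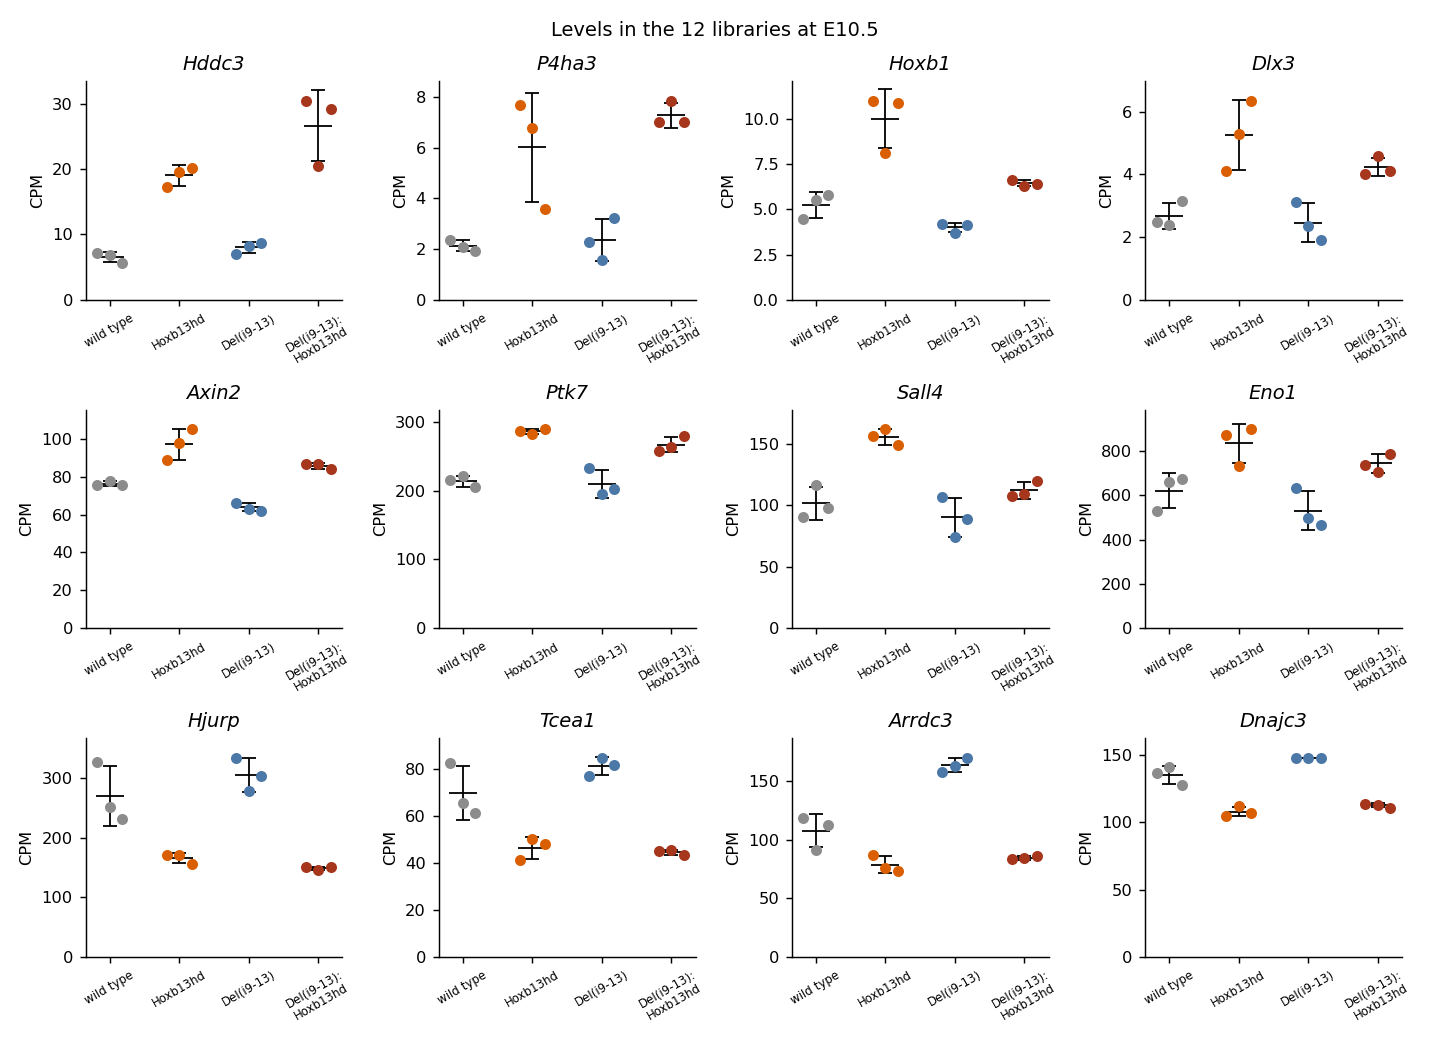
Each panel gives the level of 1 gene in CPM (linear axis from 0) in the 12 libraries at E10.5, as points by genotype with the mean and SD of 3 libraries. The top 2 rows hold genes called higher with hd and the bottom row genes called lower; Hddc3 lies between 17.2 and 30.4 CPM in the 6 libraries with hd and at most at 8.74 CPM in the others.

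The hd effect without the deletion and the hd effect with it share no library, so that 1 can be read against the other. Without the deletion 517 genes were called (3.01% of those tested), 244 higher (1.42%) and 273 lower (1.59%). With it 156 were called (0.907%), 94 higher (0.546%) and 62 lower (0.36%). After the GC correction the splits were 81 higher and 141 lower without the deletion, and 43 higher and 52 lower with it, and on log2(FPKM + 0.1) the latter was 148 and 47. When only the 6 libraries of a background were fitted, the balance turned in both, to 194 higher and 139 lower without the deletion and 34 higher and 42 lower with it. Without both Hoxb13hd libraries 2 and 3 it turned as well, to 14 and 8 and to 44 and 54. It also turned without the deletion when wild type library 1 or 3, Del(i9-13) library 1 or Hoxb13hd library 2 or 3 was left out, and with it when Del(i9-13) library 2 or 3 or Del(i9-13):Hoxb13hd library 2 or 3 was. The 517 became 57 and 110 without wild type library 1 or 3, 1138 and 292 without Del(i9-13) library 1 or 3, 269, 306 and 315 without Del(i9-13):Hoxb13hd library 1, 2 or 3, and 51 and 71 without Hoxb13hd library 2 or 3. The 156 became 1453, 72 and 67 without Del(i9-13) library 1, 2 or 3, and 72, 84 and 58 without Del(i9-13):Hoxb13hd library 1, 2 or 3. Of the 517, 362 (70.0%) changed in the same direction with the deletion, and of the 156, 101 (64.7%) changed in the same direction without it. Over all genes tested the share was 57.3%. Higher calls without the deletion kept their sign in 77.5% and lower calls in 63.4%. The shares for single libraries left out ran from 51.0% (without Hoxb13hd library 2) to 76.2% (without Del(i9-13) library 1) for the first set and from 56.7% to 80.0% for the second, and genes share these libraries and are not independent. Across all genes tested the 2 effects had a Pearson r of 0.045 and a Spearman correlation of 0.179, the latter 0.119 after the GC correction. Across the 14391 genes with a mean of at least 1 CPM the values were 0.105 and 0.242. These are descriptions across genes. Both effects passed separately for 42 of all genes tested, counted whether or not their signs agreed.

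**Figure D3:**
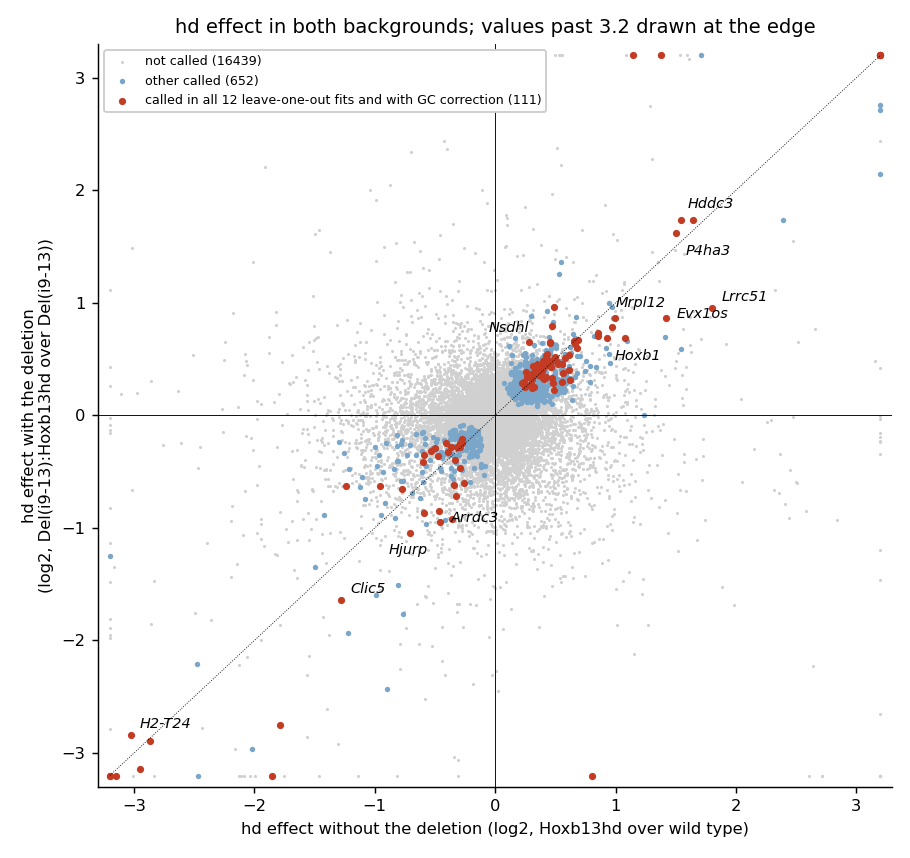
Each point is 1 of 17202 genes, with the fitted log2 hd effect without the deletion on the horizontal axis and with it on the vertical axis; values past 3.2 are drawn at the edge and the dotted line marks equal effects. The 111 genes that were called in all leave-one-out fits and with GC correction (red) lie mostly near the dotted line, with a few at the edges, 1 of them with opposite signs.

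A direct test of the difference between backgrounds called 90 genes (0.523%), 47 with a higher (0.273%) and 43 with a lower (0.25%) hd effect when the deletion was present, and on log2(FPKM + 0.1) 47 and 28. The count was 47 and 45 without wild type library 1 or 3, 174 and 50 without Del(i9-13) library 1 or 3, 40, 43 and 48 without Del(i9-13):Hoxb13hd library 1, 2 or 3, and 53 without Hoxb13hd library 3. The 5 genes that follow had hd effects of opposite sign in the 2 backgrounds, and each was called in all 12 leave-one-out fits. Pop4, a subunit of RNase P (chr7:38261996-38271423), had 30.9, 30.6 and 28.2 CPM in wild type and 55.2, 62.4 and 62.6 CPM in Hoxb13hd. With the deletion the order was turned, at 75.2, 98.6 and 92.9 CPM in Del(i9-13) and 32.3, 32.4 and 26.8 CPM in Del(i9-13):Hoxb13hd. Its hd effects were 1.01 and -1.54 (difference -2.55, adjusted p = 1.28e-06). Bcl2l12 and the histone gene H4f16 had the same pattern, with differences of -1.33 and -2.50. Emp1, a membrane protein of epithelia, was highest in Del(i9-13), at 28.6, 34.8 and 33.6 CPM against 15.1 to 20.4 CPM in the other 9 libraries (difference -1.15, adjusted p = 0.00136). Hfm1, a helicase of meiosis, was lowest in Del(i9-13), at 0.280, 0.136 and 0.253 CPM against 1.45 to 4.26 CPM elsewhere.

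Of 27 genes of the tail bud and of neuromesodermal progenitors tested, 4 were called higher with hd (against 3.1% of all genes) and none lower. The fitted log2 change was positive in 27 of 27, with a median of 0.60. The members' median transcript GC content was 53.8%, against 49.2% among genes not called, and after the GC correction 1 member was called. The list's median change was 0.95 without the deletion and 0.26 with it, and the smallest adjusted p of the interaction among its members was 0.208. An unadjusted p under 0.05 was found for 21 members, and DESeq2 called 12. Over all 17202 genes tested these numbers were 3681 and 1703. With 1 library left out the number called was between 1 and 9, with 9 without Del(i9-13) library 1, 6 without wild type library 3, 1 without wild type library 1, Del(i9-13) library 3, Del(i9-13):Hoxb13hd library 1 or Hoxb13hd library 2 or 3, and 2 without wild type library 2, Del(i9-13) library 2 or Del(i9-13):Hoxb13hd library 3. The called members were Sall4, a zinc-finger factor of pluripotent and axial progenitors, Hes3 and Wnt3a, which mark the progenitor zone, and Greb1. Sall4 ran from 108 to 162 CPM with hd (median 134) and from 74.7 to 117 CPM without it (median 94.2), and its highest values were the Hoxb13hd libraries at 157, 162 and 149 CPM (log2 0.47, SE 0.09, adjusted p = 0.0176). It belongs to the core, but without both Hoxb13hd libraries 2 and 3 its adjusted p was 0.109. Hes3 stood at 2.98, 5.68 and 4.70 CPM in Hoxb13hd and at 0.76 to 2.25 CPM in the other 9 libraries (log2 1.12, SE 0.25). Wnt3a stood at 7.18, 11.1 and 13.4 CPM in Hoxb13hd and at 3.62 to 7.30 CPM elsewhere (log2 0.71, SE 0.18). Neither of these is in the core: Hes3 was called in 7 and Wnt3a in 3 of the 12 leave-one-out fits, and neither was called after the GC correction. Members with larger changes that did not pass include Cdx4 (1.33), Fgf17 (1.32), Msgn1 (1.18) and T (0.90), the last 2 with adjusted p of 0.211 and 0.127.

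By library, the list's median deviation from the mean of all 12 libraries was 0.34, 0.71 and 0.74 in Hoxb13hd and -0.12, 0.07 and -0.53 in wild type. With the deletion it was -0.04, -0.05 and -0.13 with hd and -0.13, -0.41 and -0.29 without it, which touch at -0.13. The 2 Hoxb13hd libraries that stood apart on the first principal component are thus also the highest for this list. Without both, the list's median change was 0.41 and 0 of its members were called in edgeR. The list's summed level was 844 to 1260 CPM with hd and 704 to 979 CPM without it.

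Lists of cells that derive from these progenitors had lower medians. Over all genes tested, 3.1% were called higher and 1.34% lower. Presomitic mesoderm and segmentation clock genes had 2 of 22 called, both higher (Axin2 and Mesp2), with a median of 0.20; Mesp2 was under 1 CPM in every library. Spinal cord progenitor genes had 3 of 22 called higher (Msx1, Msx2 and Irx3), with a median of 0.12. Msx1, a roof-plate and limb factor, ran from 54.7 to 93.4 CPM with hd and from 47.7 to 56.9 CPM without it (log2 0.47, adjusted p = 0.0165); its adjusted p was 0.0787 after the GC correction. Spinal neuron genes leaned the other way, with 23 of 26 negative, a median of -0.25 and 1 member called, Neurog2, which was higher (log2 0.41, SE 0.09). Their median was -0.53 without the deletion and 0.09 with it. Sclerotome, dermomyotome and myotome genes had a median of -0.15 and 1 of 22 called, Sim1, which was lower (log2 -0.31). None of Mesp2, Msx2, Irx3, Neurog2 and Sim1 is in the core, with 1 to 8 of 12 leave-one-out fits calling them.

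**Figure D4:**
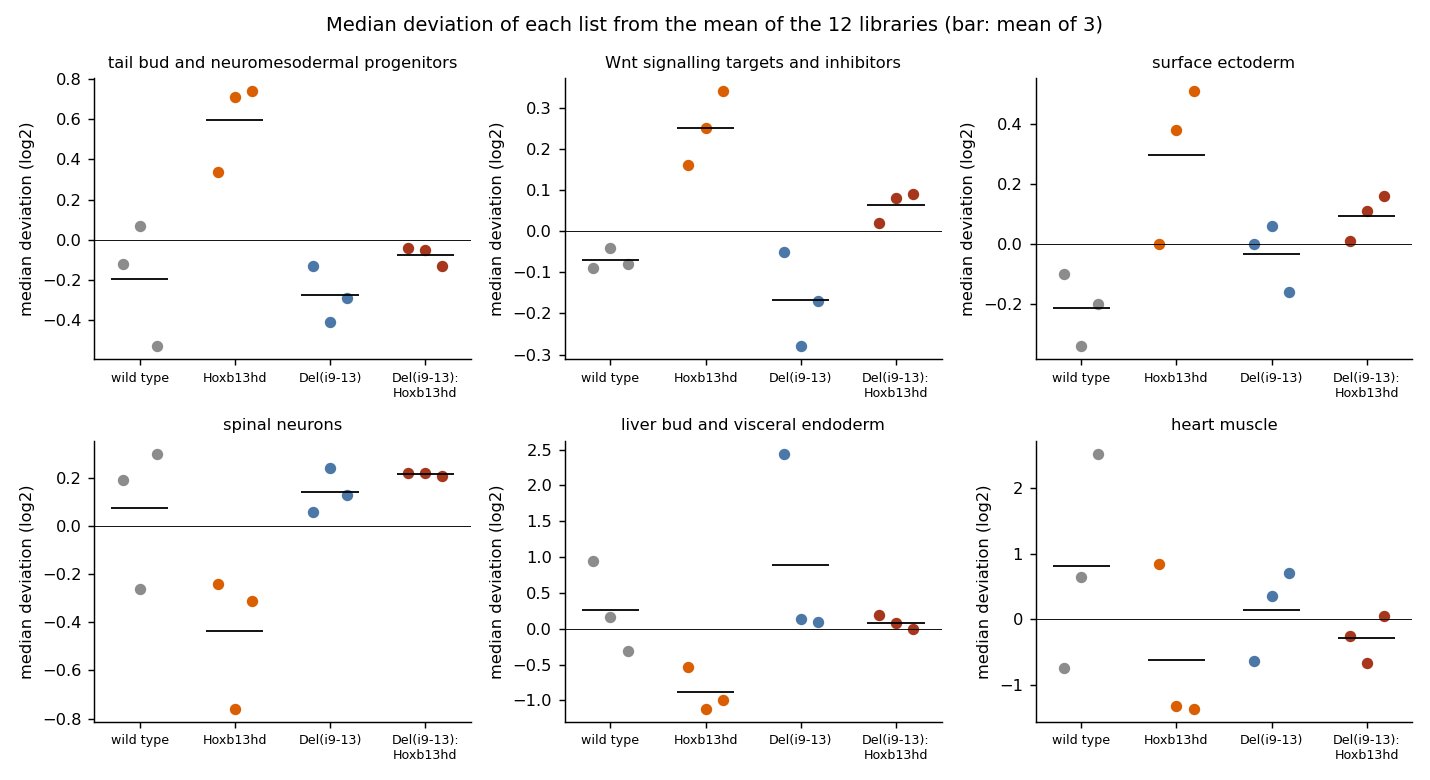
Each panel gives for 1 gene list the median over its members of the log2 deviation from the mean of the 12 libraries, as 1 point per library by genotype with the mean of 3 as a bar. The tail bud list is at 0.34, 0.71 and 0.74 in Hoxb13hd, and the liver and heart lists spread by over 1 unit within single genotypes.

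Wnt signalling targets and inhibitors had 7 of 19 members called, all higher (against 3.1% of all genes). A positive change was found for 18 of 19, with a median of 0.24. Their median transcript GC content was 52.3%, against 49.2% among genes not called. With 1 library left out, 11 were called without Del(i9-13) library 1, 7 without wild type library 3, and between 2 and 4 without any 1 of the other 10. Axin2, a feedback inhibitor and a widely used readout of the pathway (chr11:108920349-108950783), had 86.5, 86.5 and 84.0 CPM in Del(i9-13):Hoxb13hd and 88.8, 97.7 and 105 CPM in Hoxb13hd. It had 66.2, 63.2 and 62.1 CPM in Del(i9-13) and 75.4, 77.7 and 75.5 CPM in wild type. Every library with hd was above every other one (log2 0.39, SE 0.05, adjusted p = 0.000835), and the effect was as large with the deletion (0.42) as without it (0.35). Tcf7, a DNA-binding partner of beta-catenin, rose by 0.48 (SE 0.10), with 33.4 to 43.2 CPM against 21.5 to 31.1 CPM and no overlap. It was called in all 12 leave-one-out fits, but had an adjusted p of 0.0516 after the GC correction. Myc rose by 0.45 (SE 0.10) with overlapping groups and was called in 6 of 12 such fits. Of the 7, Axin2 alone passed after the GC correction, and Axin2 alone without both Hoxb13hd libraries 2 and 3. The list's median was 0.20 and 0.30 in those fits. Its medians per library were 0.16, 0.25 and 0.34 in Hoxb13hd and 0.02, 0.08 and 0.09 in Del(i9-13):Hoxb13hd, and all 6 libraries without hd were between -0.28 and -0.04.

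Fgf signalling had 3 of 20 members called, all higher (against 3.1% of all genes), with a median of 0.16. Fgf15, a ligand, ran from 6.73 to 11.8 CPM with hd (median 9.46) and from 5.07 to 8.43 CPM without it (median 6.38), with groups that overlapped across backgrounds but not within either (log2 0.58, SE 0.11, adjusted p = 0.0165). Without both Hoxb13hd libraries 2 and 3 its adjusted p was 0.108. Fgf18 and Etv5, a transcriptional target of the pathway, were called too (0.88 and 0.28) but in 1 and 4 of 12 leave-one-out fits. Erf, an Ets-family repressor that is held in check by the same pathway, rose by 0.38 (SE 0.05), from 50.8 to 59.5 CPM to 69.5 to 76.3 CPM. Ptk7, a receptor of planar cell polarity, rose by 0.38 (SE 0.05), from 195 to 233 CPM to 258 to 289 CPM. Both belong to the core and stayed called after the GC correction, at 0.26 each. In the retinoic acid pathway, which opposes Fgf in the trunk, 1 of 17 genes was called (Rarg, 0.23) and the median was 0.02.

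Surface ectoderm genes were all positive, 16 of 16, with 4 called higher (against 3.1% of all genes) and a median of 0.37. Their median transcript GC content was 55.8%, against 49.2% among genes not called. Dlx3, a homeobox factor of the epidermis and placenta, rose 1.84-fold (log2 0.88, SE 0.15, adjusted p = 0.00913), from 1.90 to 3.16 CPM to 4.02 to 6.34 CPM with no overlap. Cdh3, P-cadherin, rose by 0.47 (SE 0.08), from 52.0 to 69.1 CPM to 73.8 to 93.6 CPM, likewise with no overlap. Both belong to the core, but without both Hoxb13hd libraries 2 and 3 Dlx3 had an adjusted p of 0.0744. Tfap2a and Krt5 were called as well (0.57 and 0.75), and neither is in the core. With 1 library left out, 2 to 4 members were called, and 2 without any 1 of 9 of the 12 libraries. The list's median was 0.52 without the deletion and 0.08 with it, 0.27 after the GC correction and 0.16 without both Hoxb13hd libraries 2 and 3. Hindgut and endoderm epithelium had 2 of 19 called, Esrp1 (0.36) and Krt19 (0.39), both higher, with a median of 0.14.

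In metabolism, 6 of 24 sterol synthesis and uptake genes were called, all higher (against 3.1% of all genes), while the median of the list was only 0.05. The number was 2 after the GC correction and 1 without both Hoxb13hd libraries 2 and 3. Nsdhl, an enzyme of cholesterol synthesis, ran from 48.3 to 63.8 CPM with hd and from 36.4 to 46.1 CPM without it, with no overlap (log2 0.46, SE 0.08, adjusted p = 0.00861). Mvk, mevalonate kinase (0.19), and Srebf2, the transcription factor that governs the pathway (0.32), were also called. Hmgcs1, the synthase near the start of the pathway, did not pass (0.05). Hypoxia and glycolysis genes had 4 of 21 called, all higher (against 3.1% of all genes), with a median of 0.16. This number was 2 after the GC correction, 0 without both Hoxb13hd libraries 2 and 3, and 2 without any 1 of wild type library 1, Del(i9-13) library 3, Del(i9-13):Hoxb13hd library 2 or 3 and Hoxb13hd library 2 or 3. Eno1, enolase, ran from 704 to 898 CPM with hd and from 464 to 673 CPM without it (log2 0.46, SE 0.08, adjusted p = 0.0138), and Pfkl, a phosphofructokinase, rose by 0.38 (SE 0.06). Nsdhl, Eno1 and Pfkl belong to the core, but without both Hoxb13hd libraries 2 and 3 their adjusted p-values were 0.0568, 0.0528 and 0.0628. Slc2a1, the glucose transporter, and Hk2, a hexokinase, were also called but are outside the core.

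**Figure D5:**
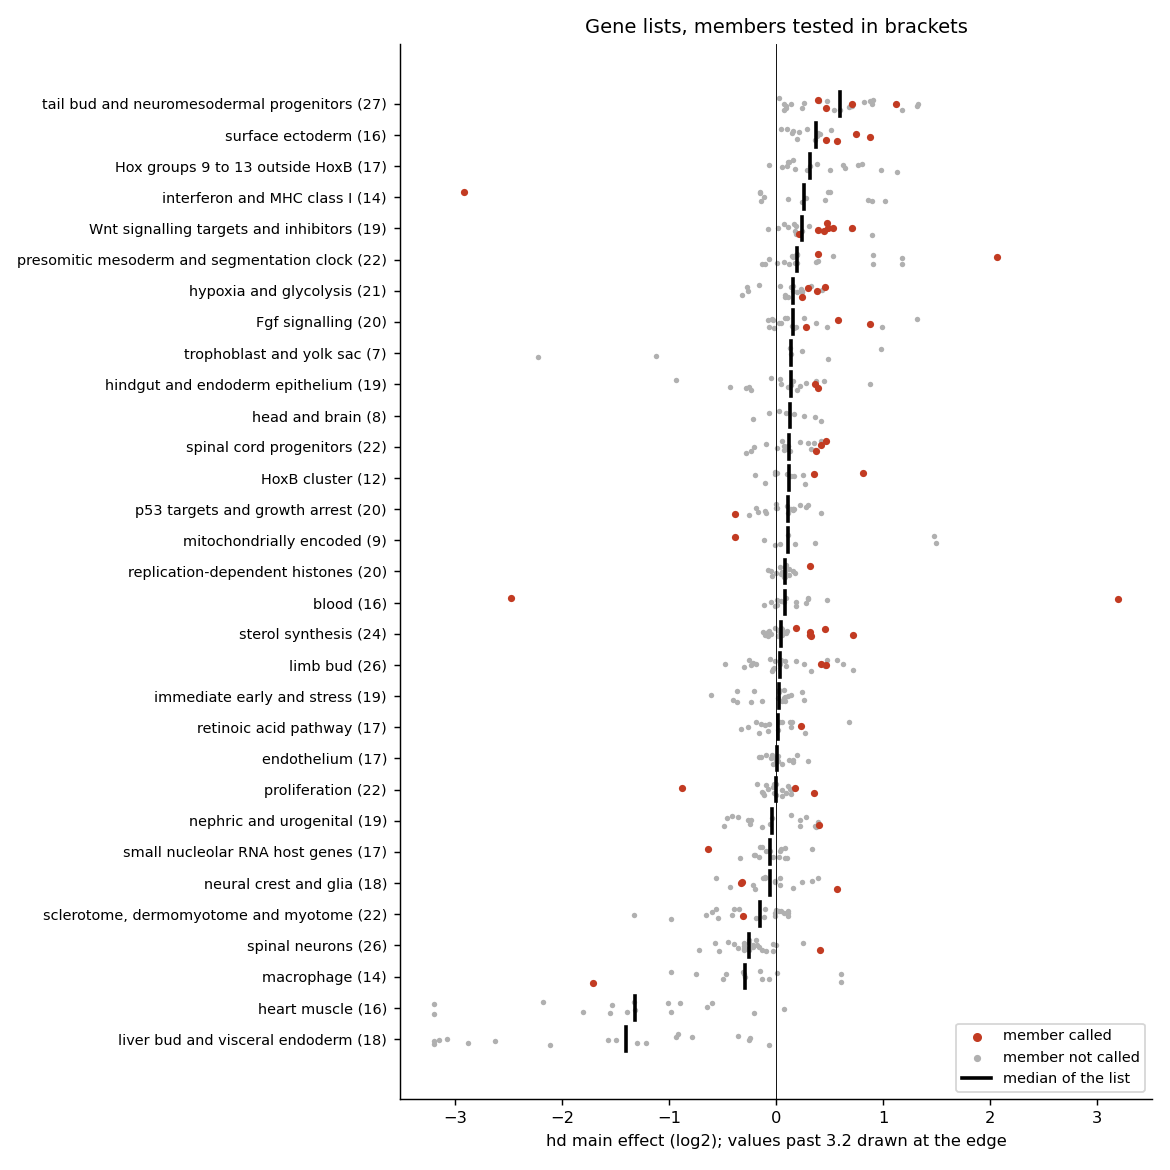
Each row is 1 gene list, with the number of members tested in brackets, and each point the fitted log2 hd main effect of 1 member (red where called, grey where not; values past 3.2 at the edge), with the median as a black bar. The tail bud list has the highest median (0.60) and the liver and heart lists the lowest (-1.40 and -1.32), the latter 2 without a called member.

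Among the lists, the median deviations of liver and heart markers, 2 organs that a trunk can hold, had the widest range over the 12 libraries. All 18 liver bud and visceral endoderm genes tested had a negative change, with a median of -1.40. In edgeR 0 of 18 passed, 14 had an unadjusted p under 0.05, and DESeq2 called 11. Over all 17202 genes tested, 3681 had such a p and DESeq2 called 1703. The list's summed level was 97.3 to 470 CPM with hd and 282 to 2460 CPM without it, the highest being Del(i9-13) library 1 and the lowest 3 the Hoxb13hd libraries. Heart muscle genes had 15 of 16 negative with a median of -1.32. In edgeR 0 passed, 3 had an unadjusted p under 0.05, and DESeq2 called 1. Their sum was 120 to 696 CPM with hd and 275 to 1960 CPM without it, the highest being wild type library 3. The median deviations of both lists were lowest in Hoxb13hd libraries 2 and 3, where the tail bud list was highest, and their part in the tail bud values was not tested. Macrophage genes summed to 8.81 to 49.0 CPM with hd and 17.4 to 46.4 CPM without it. Of 14 tested, 1 was called lower (Aif1, against 1.34% of all genes), in 6 of 12 leave-one-out fits. Blood genes summed to 8960 to 13900 CPM and 7530 to 13000 CPM, and trophoblast and yolk sac genes to 690 to 1010 CPM and 625 to 988 CPM, with Ctsq and Synb at 0 throughout.

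Blood genes held 2 called members of 16 tested, 1 higher and 1 lower (against 4.44% of all genes called). Both are globins with a close paralog, and their counts are uncertain because the counting of reads that fit several genes is not given. Hba-a2 had 56.0, 0.546 and 78.9 CPM in Del(i9-13):Hoxb13hd and 69.7, 73.4 and 87.8 CPM in Hoxb13hd, but at most 0.254 CPM in the 6 libraries without hd (22 reads in all). Its neighbour and near copy Hba-a1 was at 413 ± 47.5 CPM (SD, n = 6) with hd and 446 ± 88.3 CPM (n = 6) without it (log2 -0.11, adjusted p = 0.663). Hbb-bt was lower with hd (3.33 ± 2.91 against 18.2 ± 8.7 CPM, log2 -2.48, adjusted p = 0.0349; called in 3 of 12 leave-one-out fits, n = 6 and 6) while Hbb-bs was at 18.8 ± 8.0 and 14.6 ± 7.84 CPM. Other pairs of similar genes also held called members, not all with the same pattern. Tcea1-ps1, a pseudogene of Tcea1 on another chromosome, was higher (log2 1.89) where Tcea1 was lower, and Tmem181b-ps was lower (-0.93) where Tmem181a was higher (0.44). Rps18-ps6 had 11770 reads without hd and 12 with it, and Glo1-ps 549 and 4, all but a few of the reads without hd being from the Del(i9-13) libraries. Both belong to the core although they changed with the deletion only. Rps18 (log2 0.30) and Glo1 (log2 -0.33) were not called.

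Calls were unevenly spread along the genome. Chromosome 17 had 9.1% of its tested genes called and chromosome 7 6.95%, against 4.44% over all chromosomes, and chromosome 11, which carries HoxB, 5.66%. On the X chromosome 3.9% were called lower and 1.06% higher, against 1.34% and 3.1% over all genes. Of the 9 core genes on the X chromosome, 1 was higher. Of the 17202 genes tested, 1309 were on chromosome 7, 1307 on chromosome 11 and 791 on chromosome 17. Of the 44 genes with a change of at least 1, 13 were on chromosome 7 and 8 on chromosome 17. The core was 0.645% of all genes tested. Its share was 2.4% on chromosome 17, 1.6% on the X chromosome, 1.15% on chromosome 7 and 0.842% on chromosome 11. In 10 Mb bins with at least 50 tested genes, 85 of 143 bins held no gene of the core. The bin from 40 to 50 Mb on chromosome 17 held 9 of 87 (10.3%), among them Ptk7 and Clic5, an intracellular chloride channel protein (log2 -1.46, SE 0.27, adjusted p = 0.0138). The bin from 100 to 110 Mb on chromosome 7 held 5 of 98 (5.1%), with P4ha3 and Lrrc51. Neighbouring bins held core genes too. The bin from 30 to 40 Mb on chromosome 17 held 4 of 184 (2.17%). That from 90 to 100 Mb on chromosome 7 held 3 of 67 (4.48%). Within 1 Mb of Hoxb13, 6 of 49 genes were called (12.2%): Hoxb1, Hoxb9, Gm53, Snf8 and Nfe2l1 were higher, and 1 gene was lower. Of the 6, Hoxb1 alone belongs to the core. Hoxb9, Snf8, Gm53 and Nfe2l1 were called in 10, 8, 3 and 2 of the 12 leave-one-out fits. Within 10 Mb the share was 6.38% of 329 genes. Chromosome 11 held 9.7% of all calls, but 6.74% after the GC correction and 4.26% without both Hoxb13hd libraries 2 and 3, whereas chromosome 7 held 11.9%, 15% and 20.2%, and chromosome 17 9.44%, 11.9% and 16%. Without Del(i9-13) library 3 the shares of chromosomes 7 and 17 were 17.9% and 14.7%.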

How the data were processed

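RNA-seq values came from 12 libraries of mouse embryos at E10.5, 3 of each of 4 genotypes, and 6 libraries of other stages in the series were not used. The deposited table of counts per gene holds 55141 genes, and the deposited FPKM table holds 55138. The submitters' processing notes name cutadapt 1.18, STAR 2.7.10a, Cufflinks 2.2.1 and mm10, and the authors' FPKM table carries the name of Cufflinks. The counter, its strand setting and its treatment of reads that fit several genes were not given there.

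Genes were filtered with filterByExpr (minimum count 10, minimum total 15) and tested with edgeR 4.0.16 in R 4.3.3 (TMM factors, robust quasi-likelihood test), fitting deletion and hd as additive factors for the hd main effect and 1 mean per genotype for the effects within backgrounds and their difference. P-values were adjusted over all 17202 genes by Benjamini-Hochberg at 0.05, and SEs are the log2 change divided by the root of the F statistic. Fitted log2 changes of genes with groups at 0 depend on the prior count. Alternatives were DESeq2 1.42.0, limma 3.58.1 on log2(FPKM + 0.1), other filters and scalings, a replicate block, an Xist covariate and leaving out each library. The GC correction (a lowess curve, span 0.3, on transcript GC content from GENCODE M21, taken as offsets) and the fit without both Hoxb13hd libraries 2 and 3 were added after seeing the data. Coding sequences came from the same mm10 reference. The code was tested on simulated data.

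Gene lists, 32 in all, and the rule for named genes were chosen with earlier results of these data known. The rule took the HoxB genes and Gm53, up to 12 called genes each way by size and 6 by p, up to 3 members of each list by p, called genes within 1 Mb of Hoxb13 and 6 interaction genes. Greb1, Krt5, Hk2, Lef1, Cdx4, Fgf17, Msgn1, T, Hmgcs1, Mvk, Srebf2, Hba-a1, Hbb-bs and the pseudogene pairs lie outside it and were chosen after their values were seen. The same holds for members of the core named in the closing section. A few genes that the rule takes are not reported here.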

Additional observations from a re-analysis of the deposited data

Results flagged for a closer look

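In 5 cases 1 library lay far from the other 5 of its 6 with or without hd. Both sides of each of the 73 named genes called for the hd main effect were searched. Chance flags about 1 in 20 such groups, so the 5 are no more than chance would give. P4ha3 stood at 3.59 CPM in Hoxb13hd library 3 and between 6.77 and 7.84 CPM in the others with hd. Hba-a2 stood at 0.546 CPM in Del(i9-13):Hoxb13hd library 2 and between 56.0 and 87.8 CPM in the others with hd. Esrp1 stood at 14.4 CPM in Del(i9-13) library 1 and between 12 and 12.7 CPM in the others without hd. Trim12a stood at 0.898 CPM in Hoxb13hd library 3 and between 0 and 0.0434 CPM in the others with hd. Trim34a stood at 0.632 CPM in wild type library 3 and between 1.04 and 1.27 CPM in the others without hd.

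The hd effect differed between backgrounds, by edgeR's test of the interaction, for 6 named genes. The log2 effect with the deletion minus that without it was -2.55 for Pop4, -2.50 for H4f16, -1.33 for Bcl2l12, -1.15 for Emp1 and 4.68 for Hfm1. For Eif3j2 the fitted difference was -12.12 (adjusted p = 1.05e-07), a value that depends on the prior count. Eif3j2 stood at 7.79, 8.1 and 9.46 CPM in Hoxb13hd and 7.17, 6.65 and 5.99 CPM in Del(i9-13), and at 0 to 0.217 CPM in the other 6 libraries. Its near copy was not examined, and its counts are uncertain.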

How the results depend on the processing

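The 73 named genes called for the hd main effect kept their sign under every alternative. This says little, because they were picked from calls in these same libraries. Of the 73, 30 were called in every leave-one-out fit and 32 with the GC correction. Numbers of calls moved. For the hd main effect (763) they were 1703 with DESeq2, 507 with Xist as a covariate, 494 and 503 on log2(FPKM + 0.1) and log2(FPKM + 1), 139 on FPKM without a filter, and 44 with a log2 change of at least 1. For the effect without the deletion (517) the same settings gave 1240, 283, 272, 277, 132 and 114, and its 6 libraries alone 333. For the effect with the deletion (156), DESeq2 gave 660, its 6 libraries alone 76 and a log2 change of at least 1 51. For the interaction (90), DESeq2 gave 295 and FPKM without a filter 47. With the GC correction the first 3 counts were 193, 222 and 95, and with the replicate block and GC correction 127, 233 and 79. Without both Hoxb13hd libraries 2 and 3 the 4 counts were 94, 22, 98 and 38. With 1 library left out they ran from 184 to 1756, 51 to 1138, 58 to 1453 and 40 to 174.

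The share of genes called without the deletion that kept their sign with it (70.0%) was 61.7% with the GC correction, 54.5% without both libraries, and 51.0 to 76.2% with 1 left out. The share in the other direction (64.7%) was 73.2% for an unadjusted p under 0.01 and 56.7 to 80.0% with 1 left out. Called list members (52) numbered 16 with the GC correction, 8 without both libraries and 19 to 93 with 1 left out. The shares of calls on chromosomes 7, 11 and 17 were 15%, 6.74% and 11.9% with the GC correction, 20.2%, 4.26% and 16% without both libraries, and 10.48 to 17.9%, 9.09 to 11.4% and 6.78 to 14.7% with 1 left out. Fewer samples or genes tested aside, the cause was not tested.

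Replicate numbers did not pair the samples: same-numbered libraries correlated at -0.296 to 0.21, and 3 of 12 libraries correlated best with their own number. With the replicate block the 4 counts were 616, 451, 114 and 66.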

Other observations

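Further groups of genes were put together after the values of the called genes had been seen, so their counts describe these libraries and support nothing else. Chaperones of the endoplasmic reticulum, genes of the unfolded protein response and others of that compartment, such as Magt1, leaned lower. Of 30, 23 had a negative change, 9 were called lower (against 1.34% of all genes) and 1 was called higher (Atf6b, log2 0.29). The median was -0.11. Hspa5, the main chaperone of that compartment, stood at 1120 ± 78.8 CPM (SD, n = 6) with hd and 1370 ± 70.6 CPM (n = 6) without it (log2 -0.29, SE 0.05). Xbp1, a transcription factor of the response, fell by 0.39 on the log2 scale, and Pdia4, a disulfide isomerase, by 0.27. Dnajc3, Xbp1, Pdia4, Hspa5 and Magt1 were called in all 12 leave-one-out fits and with the GC correction.

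Genes of ribosome biogenesis were called higher in 10 of 40 cases and lower in none, with 31 positive and a median of 0.10, against 3.1% called higher over all genes. Of the 10, 6 were called in all 12 leave-one-out fits and with the GC correction (Noc2l, Nle1, Bysl, Fbl, Rrs1 and Gar1). Fbl, the methyltransferase of nucleolar RNA, stood at 89.5 ± 3.84 CPM (n = 6) with hd and 67.8 ± 9.08 CPM (n = 6) without it. Gar1, a protein of pseudouridylation complexes, rose by 0.65 (SE 0.12), and Noc2l, a factor of pre-ribosome maturation, by 0.37 (SE 0.04).

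Another group held Wnt receptors, planar polarity genes, feedback inhibitors and other genes set beside them, such as Tle3 and Amotl2. None of these was in the Wnt list of the report. Of the 32, 10 were called higher and 2 lower (Fzd3, -0.27, and Tle1, -0.17), against 3.1% and 1.34% over all genes. The median was 0.18. Of the 10 higher genes, 6 were called in all 12 leave-one-out fits and with the GC correction (Ptk7, Daam2, Ror2, Apcdd1, Amotl2 and Tle3). Ror2, a receptor for Wnt5a, stood at 61.0 ± 2.46 CPM (n = 6) with hd and 47.4 ± 3.72 CPM (n = 6) without it. Daam2, a formin of the pathway, rose by 0.66 (SE 0.10), and Apcdd1, an inhibitor of Wnt signalling at the cell surface, by 0.47 (SE 0.08).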
